A study of Mus musculus with 24 samples.

Results

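The regions described here are the static distal regions of mouse epidermis during SOX9-driven reprogramming: stretches of open chromatin far from any gene start that carried an ATAC-seq peak at every time examined in vivo. ATAC-seq maps open chromatin through the Tn5 transposase, which inserts sequencing adapters where DNA is accessible. Peaks of the 5 in vivo lists (D0, W1, W2, W6 and W12) were merged wherever they overlapped by at least 1 bp, which gave 98240 regions. A region was kept when all 5 lists had a peak in it and its centre lay more than 10 kb from every annotated transcript start, and 12165 regions met both conditions, 12.4% of all regions and 32.8% (95% Wilson interval 32.3 to 33.3) of the 37116 regions present in all 5 lists. Because presence in the 5 lists and distance chose the members, their in vivo scores, widths and distances are a description, whereas consensus sequences, gene bodies and the culture lists were not used in the choice.

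The series comprised 24 samples in 12 groups of 2, and since peaks were called on both replicates together, every group is represented by a single list without a spread between replicates. In vivo, all groups, D0 included, were epidermal stem cells (EpdSCs) of CD1 mice carrying K14rtTA and TRE-myc-Sox9, in which the Krt14 promoter drives the DOX-dependent transactivator and DOX switches on the myc-tagged Sox9 transgene. D0 mice were aged P21 and had received no DOX, and W1, W2 and W6 mice were on DOX for 1, 2 and 6 weeks and aged P28, P35 and P63, so weeks on DOX and age cannot be told apart. W12 cells came from newborn skin grafted onto Nude hosts and kept on DOX for 12 weeks once the graft had healed, so that week and tissue source cannot be told apart for this list. Cells from several male mice were pooled in a replicate and sorted on integrin alpha 6 and Ly6A after removal of endothelial, immune and mesenchymal cells by surface markers. No list of mice with the transactivator alone was analysed here. The 7 culture lists came from EpdSCs of newborn pups grown in low-calcium medium: cells kept without DOX (noDOX) and 6 arms that received 1 µg of DOX per ml, for 3 days where the labels give a day. The noDOX cells are labelled as the uninduced WT-SOX9 culture. Wild-type SOX9 was expressed in WT-SOX9, a form lacking the HMG domain that binds DNA in ΔHMG-SOX9 and one lacking the transactivation domain in ΔTA-SOX9, all 3 delivered by lentivirus into K14rtTA cells per the methods and labelled TRE-myc-Sox9, TRE-myc-Sox9noHMG and TRE-myc-Sox9noTA. AFOS, a dominant-negative partner of JUN, was expressed from TRE-FLAG-AFOS in K14rtTA cells without or with TRE-myc-Sox9 (SOX9+AFOS), and ARID1a, which belongs to the SWI/SNF remodelling complex, from TRE-ARID1a with TRE-myc-Sox9 (SOX9+ARID1a).

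Open chromatin away from gene starts marks mainly enhancers, short stretches of DNA where transcription factors bind and act on genes that can lie far along the chromosome, together with sites of CTCF, a zinc finger protein that anchors chromatin loops. EpdSCs, the basal stem cells of the interfollicular epidermis, rely on factors such as p63, GATA3, KLF and AP1 (dimers of FOS and JUN), whereas hair follicle stem cells (HFSCs) depend on SOX9, an HMG-box factor that can engage closed chromatin. An enhancer that stays open through a change of fate may still be bound by other factors at each stage, which a peak list does not show.

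7 members were chosen after their values were seen, to show what such regions look like. Each line gives the central 200 bp (RefSeq GRCm38.p6, plus strand, 5′ to 3′), and capitals mark matches on either strand to the consensus of SOX factors (ACAATAG or ACAATGG), of AP1 dimers (TGACTCA or TGAGTCA), of GATA factors (AGATAA) or of CTCF. Members are named by the protein-coding gene whose start is nearest, a label of position and not of a target. The lines for Selenof (chr3:144604306-144604505) and Casq2 (chr3:102112468-102112667) show members whose scores were higher in the later lists and hold SOX matches. The Klf5 line (chr14:99411875-99412074) shows a member whose scores were higher in the earlier lists and that holds a GATA match. The Kcnma1 line (chr14:23911142-23911341) is among the steadiest members, the Zxdb line (chrX:94865643-94865842) has the highest lowest score among members with a CTCF match, and the lines for Sox9 (chr11:112140887-112141086) and Gata3 (chr2:9835229-9835428) are the highest members at these regulators of follicle and epidermis.
Selenof: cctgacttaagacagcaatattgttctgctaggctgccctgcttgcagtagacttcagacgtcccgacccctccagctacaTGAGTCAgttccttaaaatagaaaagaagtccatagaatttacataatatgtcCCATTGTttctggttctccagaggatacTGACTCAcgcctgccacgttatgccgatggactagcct
Casq2: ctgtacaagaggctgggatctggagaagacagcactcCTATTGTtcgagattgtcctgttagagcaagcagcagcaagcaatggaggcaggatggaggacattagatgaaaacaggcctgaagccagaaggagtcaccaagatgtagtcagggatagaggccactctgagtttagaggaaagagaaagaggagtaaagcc
Klf5: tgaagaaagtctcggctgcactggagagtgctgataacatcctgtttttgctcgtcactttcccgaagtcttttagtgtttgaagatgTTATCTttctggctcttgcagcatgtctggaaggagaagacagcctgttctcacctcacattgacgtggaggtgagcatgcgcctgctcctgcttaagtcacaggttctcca
Kcnma1: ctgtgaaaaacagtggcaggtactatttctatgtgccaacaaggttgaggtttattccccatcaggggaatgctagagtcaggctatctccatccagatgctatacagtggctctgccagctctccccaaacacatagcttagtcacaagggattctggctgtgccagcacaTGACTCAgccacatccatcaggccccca
Zxdb: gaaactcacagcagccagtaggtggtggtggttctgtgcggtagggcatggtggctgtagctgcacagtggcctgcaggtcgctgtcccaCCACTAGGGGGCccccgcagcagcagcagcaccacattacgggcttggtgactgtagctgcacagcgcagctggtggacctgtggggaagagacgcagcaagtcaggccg
Sox9: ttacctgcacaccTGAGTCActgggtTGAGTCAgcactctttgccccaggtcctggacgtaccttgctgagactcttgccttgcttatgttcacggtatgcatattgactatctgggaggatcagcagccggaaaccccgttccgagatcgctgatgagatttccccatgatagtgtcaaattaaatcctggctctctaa
Gata3: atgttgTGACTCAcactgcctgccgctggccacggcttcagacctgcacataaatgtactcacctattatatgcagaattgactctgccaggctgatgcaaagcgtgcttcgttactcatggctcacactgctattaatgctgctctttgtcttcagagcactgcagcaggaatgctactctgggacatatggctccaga

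The sequences differ in where the capitals fall. The Selenof line carries an AP1 match on either side of a SOX match, whereas the Casq2 line has a SOX match and no AP1 match. The Sox9 line has 2 AP1 matches close together near its start, and the Gata3 line has an AP1 match near its start as well. A match is a string of letters and not a measured binding site.

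The peak score deposited by the authors ranks a peak within its list, with 3 as the lowest score kept. In the in vivo lists the score followed the deposited −log10 q-value almost exactly (Pearson r across peaks 0.999984 to 0.999997, a description of how the score is scaled), so the score measures the strength of evidence for a peak within its list, and a ratio of scores between lists is not a ratio of accessibility. The lists held 57334 to 75956 peaks in vivo and 49458 to 60231 in culture, scores summed to 948518 to 996710 per in vivo list, and the read depth behind them is unknown. The lowest −log10 q kept differed between the in vivo lists, from 4.21 to 14.5, so the same score of 3 stood for unlike evidence. The coding part of the last Sox9 exon, a stretch that a Sox9 transgene shares, had a peak of score 13.5 at D0, 15.1 at W2, 9.22 at W6 and 8.84 at W12 and none in the list labelled W1, so that this check did not separate the lists by DOX, and for the groups formed on these scores the counts, the main differences in consensus matches and the gain or loss of peaks in WT-SOX9 are given also without W1 or the grafted W12 list. Other values that use those lists are given with them only, except where said. Without requiring a W12 peak 12651 regions would be members, and without W1 13830. Promoter peaks of keratinocyte markers were present in all 5 lists for 6 of 7 genes, while none of 5 immune markers had a promoter peak in any list. Of 5 fibroblast markers, 2 had a promoter peak in all 5 lists (Pdgfra and Col1a1, sums 13.8 to 23.4) and Col1a2, Col3a1 and Dcn had none. Among 5 melanocyte markers, Dct and Pmel had one in all 5 lists (sums 32.8 to 50.7) and Kit, Tyr and Mlana had none. Of 4 hair follicle bulge markers, Lhx2 and Nfatc1 had one in all 5 lists, while Cd34 (5.90 and 3.03) and Lgr5 (5.73 and 7.73) had one at W6 and W12 only.

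Static distal regions were wide and high among distal regions. Their merged width had a median of 704 bp (quartiles 560 and 900, range 282 to 2691), against 424 bp for the 30309 distal regions missing from at least 1 list (dynamic distal) and 975 bp for the 14116 static regions within 1 kb of a start. A region seen in 5 lists is merged from more peaks, and the highest D0 peak of a member alone had a median width of 576 bp. The median score of members was 14.1, 13.2, 14.3, 12.9 and 13.3 from D0 to W12. For dynamic distal regions with a peak in the list it was 5.16, 5.46, 5.85, 5.68 and 5.29. Members made up 21.9%, 21.2%, 20.02%, 16.6% and 17.5% of the peaks from D0 to W12 and 25.1%, 21.9%, 24.3%, 20.7% and 22.4% of the summed score. They covered 9.28 Mb. Scores were spread widely over the members: 4547 (37.4%) had a score of at least 10 in all 5 lists, and 3511 (28.9%) had a lowest score under 5.

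The member with the highest lowest score lay 110 kb from the start of Gm8797 (chr3:5860310-5860892, intergenic), with scores of 245, 222, 267, 218 and 324 from D0 to W12. In an intron near Chl1, a neural adhesion molecule, a region scored 203, 220, 233, 317 and 339 in the same order (chr6:103649000-103649404). Between them these regions hold the highest score of any member in each list, and both regions had a peak in all 7 culture lists. The Filip1l region (chr16:57391203-57391810) scored 150 to 293 in vivo, but in culture its score ran from 141 in noDOX and 128 in WT-SOX9 down to 3.01 in SOX9+ARID1a. The Pak3 region on the X chromosome (115 to 215 in vivo) had a score of 109 in AFOS, 48.2 in SOX9+AFOS and 90.2 in SOX9+ARID1a and no peak in the other 4 lists. Proser2 (chr2:6118084-6118790, intron, with an AP1 match) scored 98.8 to 133 in vivo and 90.5 to 138 in culture.

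At the other end, members just inside the score limit had a lowest score of 3.003 near Lhx2, 3.004 near Gli3 and 3.005 near Tbc1d8. All 3 had higher scores in other lists, up to 11.2, 10.01 and 11.1. At the limit of distance, the members nearest to 10 kb lay 10002 bp, 10004 bp and 10004 bp from the nearest start of any gene (nearest coding genes Srek1ip1, Hnrnpa3 and Scarb1), and regions just outside lay 10000 bp (Fosb and Sash1 as nearest coding genes) and 9998 bp (Stt3b) away. The median distance to any transcript start was 22.7 kb (quartiles 14.8 and 39.0), 2048 members (16.8%) lay over 50 kb away and 489 (4.02%) over 100 kb. The farthest from any start lay 435481 bp away in an intron (scores 5.19 to 14.3), with Il1rapl1, 652 kb away, as nearest coding gene. The next lay 328092 bp from any start and 674 kb from Rab28 (7.16 to 12.4). One 300929 bp from any start had its nearest coding gene, 1700015G11Rik, 1212 kb away, and its score was 54.6, 34.1, 20.99, 5.70 and 18.6 from D0 to W12. The widest member, 2691 bp (chr5:118353752-118356442, nearest gene 2410131K14Rik), scored 10.3 to 25.2, and the next widest lay near Macrod2 (2442 bp) and near Chd7 (2324 bp), which encodes a chromatin remodeller.

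Presence in every list did not mean an even score. Over all members the median log2 ratio of score to D0 was -0.11, -0.00038, -0.13 and -0.11 from W1 to W12, against 0.24, -0.08, -0.14 and -0.20 for static regions within 1 kb of a start. Behind these medians the spread of distal regions was the wider one from W2 onwards. The interquartile range of the log2 ratio was 0.81, 1.098, 1.22 and 1.01 from W1 to W12 for members and 0.80, 0.60, 0.70 and 0.61 near starts. The medians depended on the scale: as rank percentiles within the list W6 and W12 were above D0, by 3.36 and 3.03 points, while by fold enrichment all 4 lists were below D0 (log2 -0.28, -0.24, -0.34 and -0.26). By fold enrichment the members' interquartile ranges were narrower, 0.39, 0.53, 0.55 and 0.47, and again above those near starts, 0.35, 0.34, 0.36 and 0.32.

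**Figure D1:**
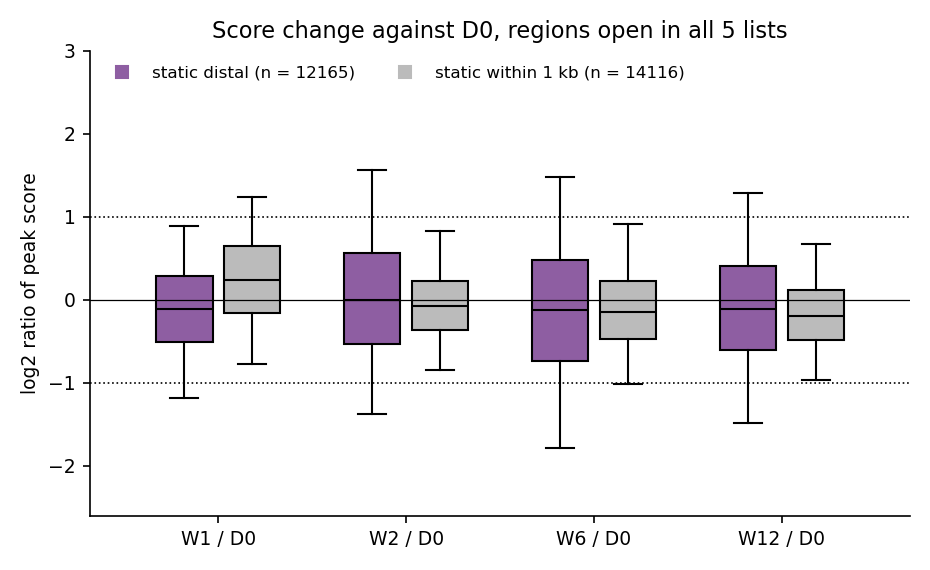
Log2 ratio of peak score to D0 for static distal regions (n = 12165) and static regions within 1 kb of a start (n = 14116) in each later list. Boxes span the quartiles with the median as a line, whiskers reach the 5th and 95th percentiles, and dotted lines mark 2-fold. Medians lie near 0 in both classes, and from W2 onwards the boxes of the distal regions are the taller ones.

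Members at least 2-fold above or below D0 were counted next. Each count by score is set beside the share among all regions with a peak in both lists compared. In W1, 410 members (3.37%) were at least 2-fold higher than at D0 against 7.70% of all such regions, and 960 (7.89%) were lower against 5.08%. At W2, 1615 (13.3%) were higher against 11.3% and 1300 (10.7%) lower against 8.36%. On this scale both directions were above the share of all regions at W2, whereas in W1 only the lower ones were. At W6, 1426 (11.7%) were higher against 11.5% and 2055 (16.9%) lower against 11.3%. For W12 the counts were 1104 (9.08%) higher against 9.15% and 1524 (12.5%) lower against 9.63%. On the score scale the excess over all regions at W6 and W12 was thus on the lower side. By fold enrichment far fewer members were 2-fold apart from D0, with 2, 45, 26 and 22 higher and 260, 604, 991 and 470 lower from W1 to W12, so the balance of directions at W2 depended on the scale. For these counts no share among all regions was computed. All regions with both peaks were also below D0 by fold enrichment, with median log2 ratios of -0.20, -0.21, -0.29 and -0.24. With a single pooled list per week none of these differences has a test across animals.

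Between successive lists the largest movement was from W1 to W2, when 2296 members (18.9%) were at least 2-fold higher against 11.7% of all regions and 1380 (11.3%) lower against 13.4%. From W2 to W6, 532 (4.37%) were higher against 6.47% and 1142 (9.39%) lower against 6.28%. From W6 to W12, 666 (5.47%) were higher against 4.26% and 547 (4.50%) lower against 6.54%. Over all 5 lists, 7913 members (65.0%) had a highest score at least 2-fold above their lowest and 1982 (16.3%) at least 4-fold, whereas 42.8% of static regions within 1 kb of a start reached 2-fold. By fold enrichment only 2433 members reached 2-fold, and with scores of at least 5 in each list 4986 did. Without the W1 scores 6180 members reached 2-fold, and without those of W12 6954. The highest score of a member was found most often at W2 (25.6%) and W1 (23.5%), and the lowest most often at W1 (27.8%) and W6 (25.5%).

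The place of a member's highest peak was compared between lists as well. The summit of the highest peak in a later list lay a median of 25 bp (W12) to 33 bp (W6) from the D0 summit, and within 50 bp of it in 64.4% (W6) to 70.7% (W12) of members.

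In part of the members the scores of D0 and W1 stood apart from those of all later lists. Late-higher members had a score in each of W2, W6 and W12 at least 1.5-fold above both D0 and W1, and early-higher members the reverse. There were 914 late-higher members (7.51%, 95% Wilson interval 7.06 to 7.995) and 828 early-higher members (6.81%, 6.37 to 7.27), against 4.84% and 4.70% of all static regions. Static regions 1 to 10 kb from a start came close to the members, with 6.27% (5.83 to 6.74) late-higher and 6.14% (5.70 to 6.61) early-higher, whereas within 1 kb only 1.43% and 1.78% were. The median score of late-higher members was 7.91, 5.55, 23.2, 22.4 and 20.5 from D0 to W12. That of early-higher members was 23.1, 25.1, 9.53, 6.70 and 8.93. The same order of lists held by fold enrichment, with no fold required, in 62.3% of late-higher and 90.5% of early-higher members, but the full 1.5-fold separation by fold enrichment was met by only 49 late-higher and 255 early-higher regions. Without the W12 list the counts were 1375 and 1242, and without the list labelled W1 they were 1223 and 1341. On a score centred on the median of all static regions (which lay at most 0.11 from D0 on the log2 scale) 1091 were late-higher and 658 early-higher.

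The 5 late-higher members with the widest margin stood close to the score limit in both earlier lists. Intergenic DNA 13.98 kb from Selenof, a selenoprotein of the endoplasmic reticulum, held a region (chr3:144604085-144604726, 642 bp) with scores of 3.14, 3.63, 44.6, 33.9 and 31.1 from D0 to W12. In an intron 13.2 kb from Casq2, a calcium-binding protein of muscle, a region (chr3:102112158-102112977) scored 4.31, 3.93, 60.2, 41.5 and 36.3. Both are among the printed sequences, and their 3 later lists do not overlap the 2 earlier ones by construction. The Reep3 region (chr10:67061168-67062252, intron) scored 4.97, 3.67, 69.1, 53.1 and 40.2, in the same order of lists. Those near Htra4, a serine protease, and Ppif, the mitochondrial cyclophilin, scored 3.97, 4.09, 45.9, 49.2 and 26.7, and 3.30, 3.63, 22.2, 32.9 and 30.5.

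The 5 early-higher members with the widest margin went the other way. A region whose nearest coding gene is Tmem64, 104 kb away (chr4:15369330-15370295), scored 60.5, 43.6, 6.35, 4.60 and 6.21 from D0 to W12. Upstream of Klf5, a transcription factor of proliferating epithelia, a region (chr14:99263793-99264426) scored 22.2, 22.9, 3.11, 3.40 and 4.04. Klf5 also had the early-higher region with a GATA match printed above, which scored 52.5, 55.2, 10.7, 6.07 and 13.0. The regions near Vrk2, a protein kinase, Irx2, a homeobox factor, and Zfhx3, a zinc finger homeobox factor, scored 19.5 to 20.3, 29.2 to 33.1 and 39.4 to 49.9 in the 2 earlier lists and 3.79 to 3.97, 3.14 to 5.96 and 6.86 to 8.14 in the 3 later ones.

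The steadiest members, among those with every score at least 10, varied by no more than 1.13-fold between lists. At an exonic region 15.3 kb upstream of the phosphatase gene Ppm1h (chr10:122879834-122880392) the scores ran from 24.3 to 25.4, and the Il15 region (chr8:82325430-82326331) near this cytokine gene ran from 17.0 to 18.4. The Kcnma1 region, printed above, scored 21.6, 21.3, 21.4, 20.5 and 23.0 from D0 to W12 and had no peak in any culture list. Those near Tchhl1, in the epidermal differentiation cluster, and Myl3 scored 27.2 to 30.6 and 38.4 to 43.3 in vivo and had a peak in all 7 culture lists.

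**Figure D2:**
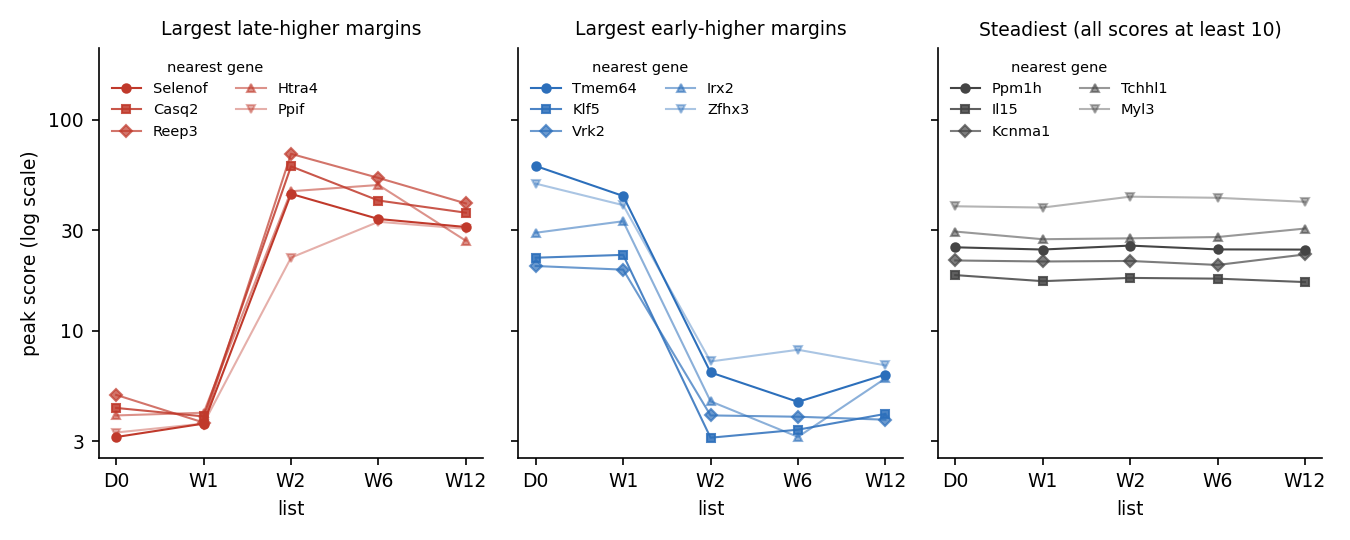
Peak score (log scale) in the 5 in vivo lists for the 5 late-higher members with the widest margin (left), the 5 early-higher members with the widest margin (middle) and the 5 steadiest members with all scores at least 10 (right), each named by its nearest protein-coding gene. Left and middle, all lines step between W1 and W2, as their selection requires. Right, they stay level, between 17.0 and 43.3.

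The promoter peak of Pecam1, a marker of another cell type, was higher in the same lists as the late-higher members. Of 4 endothelial markers, whose cells the sort was meant to remove, none had a promoter peak in all 5 lists, and the summed score was 15.2, 0, 49.5, 48.5 and 44.6 from D0 to W12. Most of it came from Pecam1, which encodes the surface protein CD31 (9.21, none, 38.3, 42.2 and 41.4). Cdh5 had no promoter peak in any list. Kdr had one at W2 (5.85) and W6 (6.28) only, whereas Tek was highest at D0 (6.03, none, 5.36, none and 3.20). The 4 genes were nearest to 8 members, 3 of them late-higher, against 7.51% of all members. At bulge markers 2 of 11 members were late-higher and at melanocyte markers 1 of 4. None was at keratinocyte (18 members), fibroblast (5) or immune markers (4). The part of these endothelial peaks in the late-higher class was not tested. Promoter scores of the 7 keratinocyte markers summed to 117, 115, 90.2, 81.5 and 96.9 from D0 to W12. Of the 7, Krt5, Trp63 and Itgb4 were lower in each later list than in both earlier ones, and the other 4 were not. Itga6, for example, scored 13.998, 19.9, 21.1, 19.2 and 10.5 in that order. All static regions within 1 kb of a start held 41.3% and 44.7% of the summed score of the list at D0 and W1, and 36.7%, 34.1% and 34.8% from W2 to W12. Ly6a, a marker used in the sort, had a promoter peak only at D0 (9.66) and W2 (5.39). The part of these in the early-higher class was not tested.

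Consensus sequences were sought in the central 200 bp of 12159 members (6 lay on an unplaced sequence and were not read). SOX matches were found in 4.10% of members, against 7.38% of dynamic distal regions, a difference of -3.27 percentage points (95% Newcombe interval -3.72 to -2.80, counting error only). AP1 matches were found in 22.9% and 23.4% (difference -0.49, -1.37 to 0.40), and GATA matches in 12.4% and 12.9% (-0.52, -1.21 to 0.18). CTCF matches were equally frequent, 2.41% in both. Thus of these 4 sequences SOX alone was rarer in the central 200 bp of regions open at every time than in that of other distal regions. This depended on the window: over whole regions, which were wider in members, all 4 were more frequent in members, as given below. RUNX matches (TGTGGT, 15.2% against 17.0%) were rarer (difference -1.78 percentage points, -2.54 to -1.004), and TFAP2 matches (GCCNNNGGC, 8.54% against 7.51%) and KLF matches (GGGTGTGG, 4.69% against 4.01%) were more frequent by 1.02 (0.45 to 1.61) and 0.67 (0.25 to 1.12). TEAD matches (GGAATG) were found in 15.1% and 15.5%. Static regions within 1 kb of a start held far fewer, with SOX in 1.89%, AP1 in 5.06% and GATA in 3.21%, and more TFAP2 (20.8%), in windows with a median GC content of 64.5% against 49.0% for members and 47.5% for dynamic distal regions.

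Late-higher and early-higher members differed from one another in these letters. SOX matches were found in 7.77% of the 914 late-higher members, 3.93% of the members in neither group (10417 of them with sequence) and 2.29% of the 828 early-higher ones. Late-higher members thus exceeded the others by 3.84 percentage points (interval 2.23 to 5.79). AP1 matches followed the same order, with 31.2%, 22.8% and 14.3%, an excess of 8.37 (5.34 to 11.6) in late-higher and a difference of -8.56 (-10.9 to -5.89) in early-higher members. The AP1 excess was 1.86 (-0.52 to 4.36) when the late-higher group was formed without the W12 list and 5.68 without W1, whereas the SOX excess was 3.92 and 3.25 in these settings. GATA matches ran the opposite way, with 7.55% in late-higher, 12.1% in the others and 20.7% in early-higher members, whose excess was 8.54 (5.84 to 11.5), 7.18 without W12 and 8.60 without W1. CTCF matches were found in 2.69% of members in neither group, 1.09% of late-higher and 0.36% of early-higher members, and in 3.78% of the quartile of members whose scores varied least. By quartile of the lowest in vivo score, CTCF matches ran from 4.53% at the lowest scores to 0.39% at the highest. The part of low scores in these CTCF shares was not tested. RUNX matches were found in 17.1% of late-higher and 12.2% of early-higher members and TEAD matches in 14.8% and 12.7%.

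**Figure D3:**
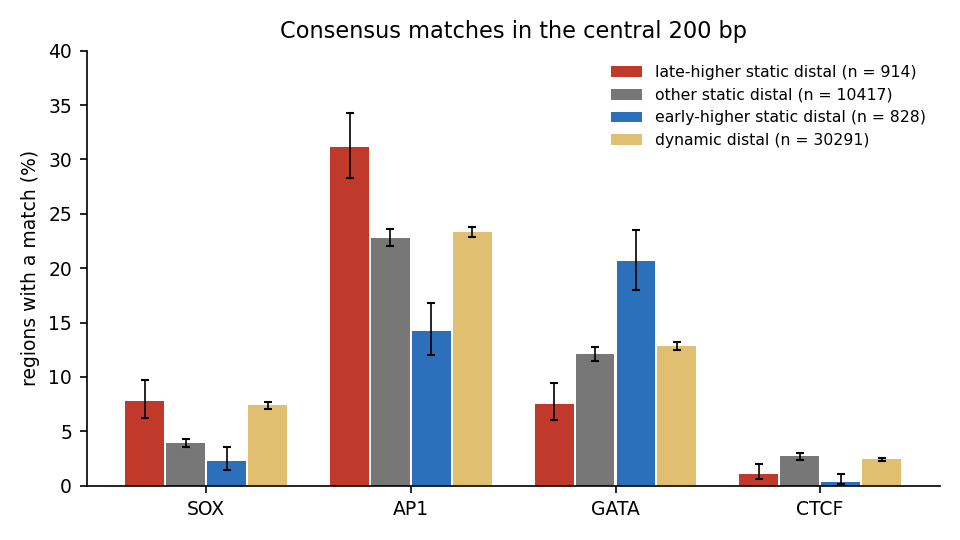
Share of regions with a consensus match in the central 200 bp for SOX, AP1, GATA and CTCF in late-higher (n = 914), other (n = 10417) and early-higher (n = 828) static distal regions and in dynamic distal regions (n = 30291). Bars start at 0 and error bars are 95% Wilson intervals. SOX and AP1 are highest in late-higher and lowest in early-higher members, and GATA is highest in early-higher members, 20.7%.

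Seen from the sequence side, members with a SOX match had a median log2 ratio to D0 of -0.19, 0.30, 0.15 and 0.0026 from W1 to W12. Of these 71 of 499 (14.2%) were late-higher, against 7.51% of all members. Members with a GATA match had -0.11, -0.15, -0.45 and -0.36, and 171 of 1502 (11.4%) were early-higher, against 6.81% of all members. For AP1 the ratios were -0.29, -0.04, -0.10 and 0.05 (n = 2779), the lowest of these in W1 and the highest at W12, and 285 (10.3%) were late-higher. Members with a CTCF match (n = 293) were higher than D0 in all 4 later lists, by 0.18, 0.15, 0.27 and 0.13, from low scores (median 5.93 at D0 against 14.1 for all members) and narrow regions (median width 457 bp).

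The letters also sat at different places within members. Around the D0 summit, the position of highest signal in the highest D0 peak, CTCF matches within 60 bp were 17.2 times as dense per kb as those 200 to 300 bp away, and AP1 matches 10.01 times as dense. For both, the profile had 2 maxima centred 30 bp to either side of the summit and a dip at the summit itself. SOX and GATA matches showed no such concentration, with ratios of 0.83 and 1.05. In late-higher members the AP1 ratio was 13.9 and the SOX ratio 1.19, and in early-higher members the GATA ratio was 1.81 and the AP1 ratio 6.90. These profiles place letters relative to a summit and do not measure occupancy.

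**Figure D4:**
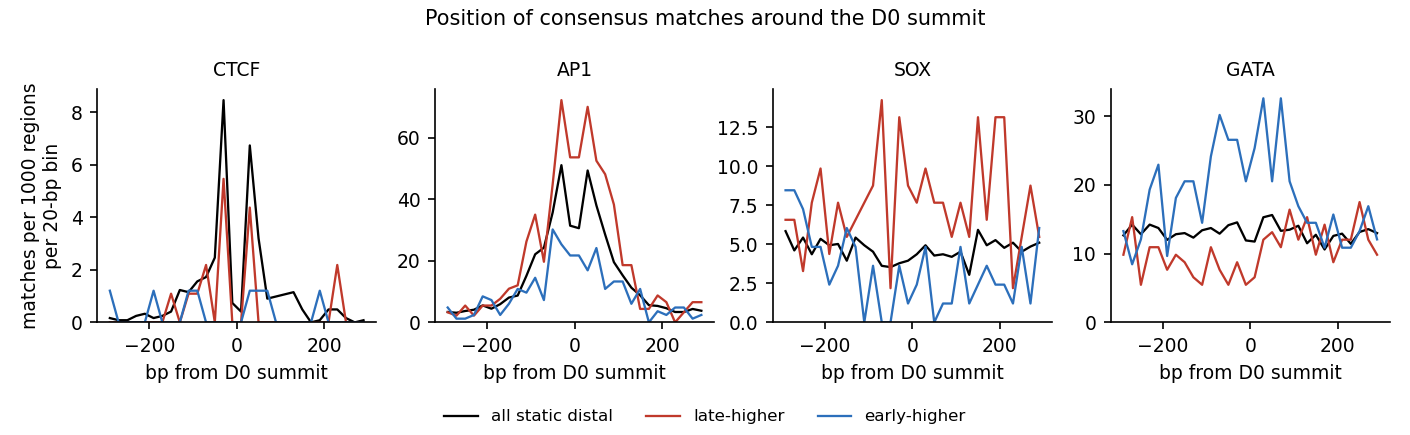
Matches per 1000 regions in 20-bp bins by distance in bp from the D0 summit for CTCF, AP1, SOX and GATA, in all static distal regions (black), late-higher (red) and early-higher members (blue), with a separate vertical axis in each panel. CTCF and AP1 have a pair of maxima 30 bp from the summit (8.47 and 6.74 CTCF matches, 51.1 and 49.3 AP1 matches in all members), while SOX and GATA are flat over all members.

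Members lay in the same kinds of place as other distal regions. By the base at their centre, 46.2% were in introns, 2.19% in exons and 51.6% between genes, against 46.6%, 2.28% and 51.1% of dynamic distal regions, and the interval of each difference includes 0 (introns -1.43 to 0.67). Late-higher members were in introns in 50.7% of cases, 4.04 percentage points above dynamic distal regions (0.75 to 7.32). Windows with at least 50% repeat sequence were found in 2.60% of members and 4.72% of dynamic distal regions.

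Cultured cells, whose lists had no part in choosing the members, carried a peak at most of them. Without DOX, 7814 of 12165 members (64.2%, 63.4 to 65.1) overlapped a peak, against 24.4% of the 8964 dynamic distal regions with a peak at D0, a difference of 39.8 percentage points (38.5 to 41.0). Among static regions within 1 kb of a start the share was 88.4%, and among all regions 45.4%. Among members a higher D0 score went with a culture peak, so the comparison was repeated in bands of D0 score chosen after seeing the data. The members' noDOX share was 52.0%, 54.5%, 63.2% and 75.9% from the lowest to the highest band, and that of dynamic distal regions 24.8%, 25.02%, 22.8% and 19.5%. The difference was 27.2 points (24.03 to 30.4) at scores of 3 to 5, 29.5 at 5 to 10, 40.4 at 10 to 20 and 56.4 at 20 and over. In all 7 culture lists 4339 members (35.7%) had a peak and in none 2859 (23.5%), against 24.3% and 38.2% of all regions. The share with a peak was 55.6% in WT-SOX9, 56.8% in ΔHMG-SOX9, 57.3% in ΔTA-SOX9, 57.2% in AFOS, 54.2% in SOX9+AFOS and 60.05% in SOX9+ARID1a. Over all regions these shares ran from 39.9% (SOX9+AFOS) to 43.1% (SOX9+ARID1a). In AFOS, SOX9+AFOS and SOX9+ARID1a the peaks are named as called on fragments, so they may differ from the others in peak calling. The culture lists hold only chromosomes 1 to 19 and X. By quartiles of the lowest in vivo score, the noDOX share ran from 47.0% (lowest scores up to 4.63) through 56.2% and 68.6% to 85.2% (13.8 and over). AP1 matches were found in 28.8% of members open in all 7 culture lists and 14.8% of those open in none, and GATA matches in 10.6% and 14.7%.

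With WT-SOX9 in culture, members had lower scores than without DOX more often than promoter regions did, and about as often as other distal regions. Among 6273 members with a peak in both WT-SOX9 and noDOX lists the median log2 ratio of score was -0.53, against 0.20 for static regions within 1 kb of a start, and 1856 members (29.6%) were at least 2-fold lower with WT-SOX9, against 18.5% of all regions with both peaks. Dynamic distal regions had a median of -0.41 with 28.4% at least 2-fold lower, and those with a D0 peak -0.57 with 33.9%. Only 294 (4.69%) were at least 2-fold higher, against 5.80%. Of the 7814 members with a noDOX peak, 1541 (19.7%) had none in WT-SOX9, and of the 4351 without, 496 (11.4%) had one. The corresponding shares were 21.03% and 11.8% over all regions, and 38.3% and 11.5% over dynamic distal regions. All 6 arms are set against the same noDOX list and so share its error. That list is the uninduced culture of WT-SOX9 alone, so in the other arms construct and cell line cannot be told apart. The median log2 ratio of members was -0.18 in ΔHMG-SOX9, -0.37 in ΔTA-SOX9, -0.27 in AFOS, -0.14 in SOX9+AFOS and -0.07 in SOX9+ARID1a. For static regions near starts it was 0.05, -0.16, -0.38, 0.02 and -0.72 in these arms, so in AFOS and SOX9+ARID1a the promoter regions were the lower ones.

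Late-higher and early-higher members, grouped on in vivo scores alone, stood apart in culture too. A noDOX peak was found at 72.0% (69.0 to 74.8) of late-higher, 65.3% (64.4 to 66.2) of other and 42.5% (39.2 to 45.9) of early-higher members, although early-higher members had the higher scores at D0. With WT-SOX9 the shares were 70.6%, 56.5% and 27.9%. Of late-higher members without a noDOX peak, 27.0% had one in WT-SOX9, against 11.3% of the others (difference 15.6 points, 10.4 to 21.5; 11.8 with groups formed without W12 and 14.5 without W1). In ΔHMG-SOX9 that share was 5.86% against 6.80% (-0.94, -3.37 to 2.73) and in ΔTA-SOX9 9.77% against 10.6% (-0.87, -4.11 to 3.49). It was 25.4% in SOX9+AFOS and 25% in SOX9+ARID1a, against 17.5% and 13.8% of the others, and 11.3% against 9.26% in AFOS alone. The excess was thus seen in the 3 arms with full-length SOX9, and its interval included 0 in the other 3. Where both lists had a peak, 84 of 576 late-higher members (14.6%) were at least 2-fold higher in WT-SOX9, 10.9 points (8.22 to 14.1) above the others, and 22.7% were at least 2-fold lower (-7.15, -10.6 to -3.36). Their median log2 ratio was -0.31 in WT-SOX9, against -0.54 for the others. The 2-fold higher share exceeded that of the others also in SOX9+ARID1a (7.80 points, 4.96 to 11.1) and in ΔTA-SOX9 (2.15, 0.22 to 4.63). Intervals of this difference included 0 in ΔHMG-SOX9 (-0.57, -1.49 to 0.95), AFOS (0.49, -1.12 to 2.66) and SOX9+AFOS (0.95, -2.11 to 4.53). In SOX9+AFOS 34.9% of late-higher members were at least 2-fold lower (10.1 points above the others, 5.79 to 14.6).

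Early-higher members lacked their noDOX peak more often than the others in 5 of the 6 arms. Their noDOX peaks were also lower, with a median score of 10.5 against 15.1 for the others and 19.4 for late-higher members, and the part of this in the loss was not tested. Of the 352 with a noDOX peak, 39.2% had none in WT-SOX9, 19.8 points (14.7 to 25.1) above the other members (18.7 without W12 and 16.3 without W1), and 40.2% of those that kept it were at least 2-fold lower (10.3 points above, 3.84 to 17.1). The loss was also above that of the others in ΔHMG-SOX9 (25.9%, by 11.2 points), ΔTA-SOX9 (31.8%, by 16.0), AFOS (25.6%, by 9.89) and SOX9+AFOS (35.8%, by 11.1), so it was seen in arms without intact SOX9 as well. In SOX9+ARID1a it was 13.6% against 14.7% (-1.03, -4.34 to 3.03). Among the named members, the Reep3 region had no peak in noDOX, ΔHMG-SOX9, ΔTA-SOX9 or AFOS lists and scores of 77.2 in WT-SOX9, 54.3 in SOX9+AFOS and 39.2 in SOX9+ARID1a. The Selenof region scored 21.2 in noDOX, 56.6 in WT-SOX9, 19.9 in ΔHMG-SOX9, 12.3 in ΔTA-SOX9, 20.2 in AFOS, 12.5 in SOX9+AFOS and 35.8 in SOX9+ARID1a. The Ppif region scored 30.8 in noDOX and 14.1 in WT-SOX9, and those near Tmem64, Irx2 and Klf5 (the early-higher region of widest margin) had no culture peak at all.

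**Figure D5:**
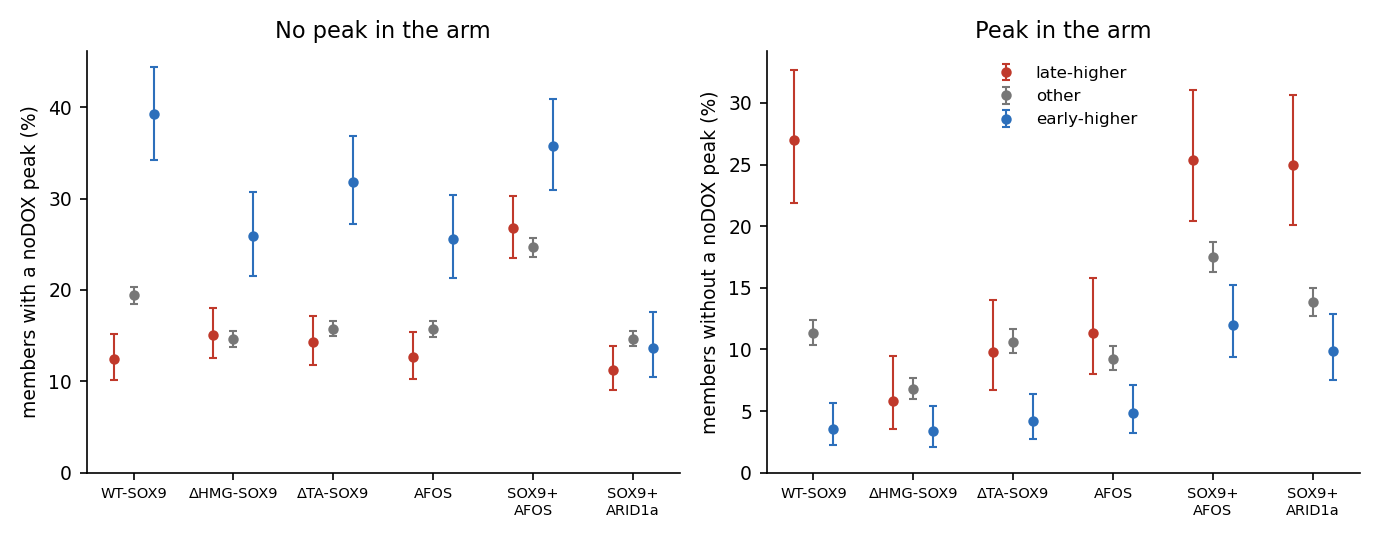
Left, share of members with a noDOX peak that had none in each culture arm, and right, share of members without a noDOX peak that had one, for late-higher (red), other (grey) and early-higher (blue) members, with 95% Wilson intervals. The early-higher loss is highest in WT-SOX9 (39.2%), and late-higher gains are above those of the other members wherever full-length SOX9 was expressed.

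Members with an AP1 match and members with a CTCF match differed in these arms. With an AP1 match the median log2 ratio to noDOX was -0.69 in WT-SOX9, -0.19 in ΔHMG-SOX9, -0.35 in ΔTA-SOX9, -0.23 in AFOS, -0.77 in SOX9+AFOS and -0.13 in SOX9+ARID1a, and 34.0% of those with a noDOX peak had none in SOX9+AFOS, against 25.3% of all members and 27.97% of all regions. That share was 18.98% in WT-SOX9, against 19.7% of all members, and 9.25% in AFOS. In AFOS the ratio was near that of all members (-0.27), while the loss was below their 15.9%. The lowest ratio of AP1 members was in SOX9+AFOS. With a CTCF match the ratio was -0.14 in WT-SOX9 and -0.70 in SOX9+ARID1a, and 29.5% of CTCF members with a noDOX peak had none in SOX9+ARID1a, against 14.3% of all members and 18.6% of all regions. The noDOX scores of CTCF members were low, with a median of 8.55 against 15.1 for all members. Members with a SOX match had ratios of -0.22 in WT-SOX9, -0.25 in ΔHMG-SOX9 and -0.58 in ΔTA-SOX9, and members with a GATA match -0.65, -0.14 and -0.35.

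By nearest protein-coding start, the 12165 members fell to 4505 genes, of which 2141 had 1 member and 170 had at least 10, the latter holding 2238 members (18.4%). Genes set in wide intergenic space gather more regions, and nearness is no proof of regulation. Gata3, an epidermal and follicle lineage factor, had 37, from 38.3 to 1092 kb away, of which 3 were late-higher and 1 early-higher. Sox9 had 32, from 29.2 to 641 kb, of which 4 were late-higher and none early-higher. Next came Epha4, an ephrin receptor (24), then Adgrl2, an adhesion receptor, Efna5, an ephrin, Klf4, a factor of epidermal barrier formation, Myc and the phosphodiesterase gene Pde4d (23 each), and Jag1, a Notch ligand (22). Arid1b, a SWI/SNF subunit, Gm26657 and Med13l, of the Mediator kinase module, had 21 each. Of these, Adgrl2 had 4 late-higher and no early-higher members, and Klf4 had 1 and 4. Members also clustered: 27.3% lay within 10 kb of the next one, and 18 fell within 200 kb near Chd7 and another 18 near Irf2bp2 and Tarbp1.

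The static share of distal regions varied between these genes. At Klf4, 46.0% of distal regions were static, and at Gata3 and Sox9 35.2% and 35.6%, against 28.6% of all distal regions. It was 26.7% at Efna5, 28.4% at Adgrl2 and 30.7% at Myc. These genes were picked for their many static members, so no test was made. At Sox9, 24 of 32 members had a noDOX peak and 11 had one in all 7 culture lists, whereas at Gata3 16 of 37 and 3 did, and at Klf4 9 of 23 and 2. The highest Sox9 member (chr11:112140582-112141391, 641 kb upstream, printed above with its AP1 matches) scored 89.7, 57.2, 80.8, 59.98 and 69.6 from D0 to W12. In culture it scored 72.7 in noDOX, 73.5 in ΔHMG-SOX9, 87.3 in ΔTA-SOX9 and 63.1 in AFOS, but 10.5 in WT-SOX9 and 32.5 in SOX9+ARID1a, and had no peak in SOX9+AFOS. The 3 arms with full-length SOX9 were thus the low ones. The highest Gata3 member (chr2:9834995-9835663, 38.3 kb away) scored 73.4, 37.2, 85.4, 51.8 and 59.4 in vivo, with 40.0 in noDOX, 53.3 in WT-SOX9, 14.9 in SOX9+AFOS and 73.9 in SOX9+ARID1a.

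Counts of members at genes listed by role are to be read against the shares of all members, of which 7.51% were late-higher and 6.81% early-higher. The 20 epidermal transcription factors listed had 137 members at 15 genes. Of these 9 (6.57%) were late-higher and 10 (7.30%) early-higher, near those shares. At Trp63, the gene of the basal master regulator p63, which had 11, the highest member (chr16:25623864-25624960, 59.4 kb upstream) scored 75.6, 59.9, 64.6, 42.3 and 66.4 in vivo. In culture it scored 73.0 in noDOX and 6.25 in WT-SOX9, with 32.0 to 67.7 in the other 5 arms. The median log2 ratio of W2 to D0 was 0.04 over the list and differed between genes of a family. It was 0.76 for the 10 members of Grhl2, a factor of epithelial junctions, but -0.25 for the 6 of Grhl1 and -1.34 for the 3 of Grhl3. The highest Klf4 member (chr4:55874901-55875879) scored 73.3, 60.4, 50.5, 27.6 and 36.8 and had no culture peak.

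The 20 genes of hair follicle stem cells and placodes had 127 members at 15 genes, 16 late-higher (12.6% against 7.51%) and 5 early-higher (3.94% against 6.81%). Sox9 supplied 4 of the late-higher members, and Runx1, which regulates follicle stem cell activation, and Tcf7l2, a WNT effector, 3 each. Over this list the median log2 ratio of W2 to D0 was 0.04. Single genes lay on both sides of it, with 1.09 for the 14 Runx1 members and 0.75 for the 7 of Nfatc1, a quiescence factor of the bulge, against -0.60 for the 11 of Tcf7l2, -0.31 for the 8 of Nfia and 0.06 for the 32 of Sox9. Highest in this list was a region in an intron with Sox4 as nearest gene, 254 kb away (chr13:28699485-28700321), with scores of 139, 87.9, 148, 81.3 and 86.8 and an AP1 match. It scored 40.1 in noDOX, 18.3 in WT-SOX9 and 6.59 in SOX9+AFOS. The highest Nfia member scored 89.1, 63.5, 80.1, 34.6 and 42.9 and had no culture peak.

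The other lists were smaller. Basal and adhesion genes had 47 members (2 late-higher, 1 early-higher), led by the 10 of Bcl11b. Their highest was the region 18.7 kb upstream of Itgb1, an integrin that anchors basal cells (chr8:128666471-128667379), with 51.1 to 71.0 in vivo and 36.8 to 78.8 in culture. Differentiation genes had 11 (none late-higher, 1 early-higher), with a median log2 ratio to D0 of 0.19, -0.42, -0.92 and -0.34 from W1 to W12. Tgm3, a transglutaminase of the cornified layer, had 5 of them. A region near Ivl, a cornified envelope gene, scored 32.1, 33.0, 30.0, 25.1 and 21.5. Genes of AP1 subunits had 13 members (none late-higher, 2 early-higher). Among them a region 152 kb upstream of Jun scored 19.3, 5.30, 23.5, 21.9 and 24.7 from D0 to W12. The static share of distal regions was 28.2% (follicle genes) to 54.2% (AP1 genes, 13 static and 11 dynamic) over the lists, against 28.6% of all distal regions.

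Notch and EGFR pathway genes had 61 members, 2 late-higher and 6 early-higher (9.84% against 6.81%), and 22 of these lay at Jag1. The highest, in an intron of Egfr, the epidermal growth factor receptor (chr11:16800396-16801268, with AP1 and GATA matches), scored 92.7, 78.2, 77.7, 49.0 and 61.7 in vivo, with 81.7 in noDOX and 38.5 in WT-SOX9. WNT, hedgehog, TGF-beta and BMP genes had 97 members, 6 late-higher (6.19% against 7.51%) and 4 early-higher. Bmp7, a BMP ligand, had 15 and none in either group, while Gli2, the hedgehog effector active in basal cell carcinoma, had 10, of which 3 were late-higher, and Gli3 had 11, of which none was late-higher and 1 early-higher. A member near Tgfb2 (chr1:186609634-186610494) scored 80.1, 61.0, 77.0, 30.9 and 45.3.

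Genes of epithelial-mesenchymal transition and cancer had 38 members, 4 late-higher (10.5% against 7.51%) and none early-higher, led by the 12 of Tnc, a matrix glycoprotein, none of which was in either group. A region whose nearest coding gene is Zeb2, a repressor of epithelial genes, at 660 kb (chr2:45776423-45777947), was late-higher, with 19.8, 8.65, 40.5, 45.6 and 42.9 from D0 to W12. In culture it scored 14.3 in noDOX and 7.19 in WT-SOX9. Chromatin remodeller genes had 23 members, 21 of them at Arid1b, where a region in an intron (chr17:5189510-5190611) was steady at 54.7, 55.7, 61.6, 58.8 and 54.3 in vivo and scored 56.7 to 96.4 in all 7 culture lists. These counts describe the lists of genes, and no test was made of any of them.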

How the data were processed

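ATAC-seq peak lists of 12 groups were used. Per the study's methods and the submitters' processing notes, the alignments of both replicates to GRCm38/mm10 (Bowtie2 2.2.9, SAMtools 1.9, Picard 2.3.0) were merged by the authors, duplicates were kept, and MACS2 2.1.1 peaks with a normalized score below 3 were discarded. The deposited in vivo lists give a peak score, the MACS2 fold enrichment (a ratio over local background), the −log10 q-value and the summit position. The deposited culture lists give the score alone. That the score is scaled to a common total per list was inferred from its sums. Read depth is not in the files, and 0 columns of per-sample values were left unused.

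Peaks were merged at 1 bp overlap. A region took the highest score of its peaks in each list. Distances were measured from region centres to transcript starts of GENCODE GRCm38, and 6 regions on sequences with no annotated start were left out. Regions were named by the nearest start of a protein-coding gene. Consensus sequences were sought on both strands of the central 200 bp: besides SOX, AP1, GATA, RUNX, TFAP2, KLF and TEAD these were TBX AGGTGTGA, GRHL AACCGGTT, ETS CCGGAAGT and CEBP TTGCGCAA or TTGCATCA, with CTCF, p63 and NFI by name. Matches to different sequences may overlap, and at least 1 of the 14 was found in 62.5% of members and 65.2% of dynamic distal regions. Shares carry 95% Wilson and differences 95% Newcombe intervals, which cover counting error over regions that are not replicates. With 1 pooled list per group there was no test across animals or cultures and no p-value was computed. The culture lists had no part in the rule, and all arms were compared with the same noDOX list.

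The members named were the 5 with the highest lowest score, the 5 late-higher and 5 early-higher with the largest margin, the 5 steadiest with all scores at least 10, the 3 widest, the 3 farthest, the 3 on each side of 10 kb, and up to 3 with the highest median score per gene list; the genes named were the 10 with the most members (12 with ties) and the richest of each list. Other genes were chosen after their values were seen, as were the printed sequences, and 1 sequence is not reported here. Members and gene lists were chosen with earlier results of these data known. Alternatives covered the score and q thresholds, the distance, the lists required, the value per region, the fold, the window and the overlap. The scripts were tested on simulated peak lists. Python 3.11.15, numpy 2.4.6, pandas 2.3.3 and matplotlib 3.10.9 were used.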

Additional observations from a re-analysis of the deposited data

How the results depend on the processing

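No paired analysis was possible because each list pools both replicates of its group, and no replicate could be left out. Read depth is unknown, no value has an error between animals or cultures, and lists differ in the evidence behind their lowest score. Of the main values recomputed under the alternatives, 73 kept their direction and stayed within 1 error or 1.5 times, 61 moved further and 2 changed sign. Alternatives of the consensus matches and WT-SOX9 values of the late-higher and early-higher groups, the bands of D0 score and the span without W1 or W12 were chosen after seeing the data. The cause of a move was not tested unless the setting itself removes regions.

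The number of members was 7867 with a common −log10 q minimum of 14.5 and 6938 beyond 20 kb. The median width was 576 bp for the highest D0 peak and 416 bp for the core covered in all 5 lists. The median log2 ratio to D0 at W1, W2, W6 and W12 was -0.28, -0.24, -0.34 and -0.26 by fold enrichment. As rank percentiles within the list the median differences were -2.84, 0.93, 3.36 and 3.03 points, which reversed W6 and W12. Centred on all static regions the ratios were -0.20 at W1, -0.020 at W6 and -0.012 at W12. With scores of at least 5 in each list they were -0.14, -0.037, -0.20 and -0.15, and with the common q minimum -0.16 at W1 and 0.068 at W2. Members with a 2-fold span numbered 2433 by fold enrichment, 4986 with scores of at least 5, 4582 with the common q minimum and 3773 at 3-fold.

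At 2-fold separation 397 members were late-higher and 293 early-higher. By fold enrichment 49 and 255 were, 47 and 193 of them shared with the groups as reported. Without the W12 list there were 1375 late-higher and without the W1 list 1341 early-higher members. The excess of SOX matches in late-higher members was 6.07 points by fold enrichment and 8.18 in whole regions. That of AP1 was 1.86 without the W12 list, 15.9 by fold enrichment, 12.4 around the D0 peak's centre and 12.1 in whole regions, and that of GATA in early-higher members was 15.6 in whole regions. Whole regions held SOX, AP1, GATA and CTCF matches in 16.3%, 42.0%, 37.2% and 3.91% of members. In dynamic distal regions, which were narrower, these shares were 14.4%, 31.8%, 26.2% and 2.80%. AP1 was found in 25.2% of members around the D0 peak's centre and 23.6% of those beyond 20 kb, and CTCF in 2.05% beyond 20 kb.

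The shares of members with a peak in noDOX, in WT-SOX9, in all 7 and in no culture list were 61.0%, 52.7%, 31.6% and 26.2% when the peak had to cover the centre. With culture scores of at least 5 they were 56.2%, 46.6%, 27.3% and 30.4%, and beyond 20 kb 61.3%, 52.6%, 33.0% and 26.2%. The noDOX difference from dynamic distal regions was 27.2, 29.5 and 56.4 points in the lowest, second and highest band of D0 score. Counting protein-coding genes only, 41.1% lay in introns, 1.90% in exons and 56.97% between genes. Of 64 counts of members 2-fold apart in a given direction, 38 moved by over 1.5 times and 26 did not.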
